A study of Mus musculus with 8 samples.

Results

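The 7 genes described here encode the transcellular calcium transport machinery of the connecting tubule and late distal convoluted tubule. They were taken from a deposited table of 47729 genes by symbol, and all 7 were found. Trpv5 and Trpv6 encode the apical calcium channels, Calb1 and S100g the cytosolic buffers calbindin-D28k and calbindin-D9k, Slc8a1 the sodium-calcium exchanger NCX1, and Atp2b1 and Atp2b4 the plasma membrane calcium pumps PMCA1 and PMCA4. RNA was sequenced from whole kidneys of mice on postnatal day 8. The 4 knockout libraries came from mice with floxed Kctd1 alleles and Cre expressed from Six2, a gene of the progenitors that form the nephron, so that nephron epithelium is targeted and collecting duct, stroma and vessels are outside that lineage. The 4 wildtype libraries came from control littermates, and the labels give no further detail of the Cre or floxed alleles these controls carried. The labels do not say that each library is a separate animal, so p-values measure the spread between libraries.

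Most filtered calcium is reabsorbed between cells in the proximal tubule and thick ascending limb. In the distal convoluted and connecting tubule it crosses the cell instead: it enters through TRPV5 and TRPV6, is carried by the calbindins, and leaves through NCX1 and the PMCA pumps. Parathyroid hormone and active vitamin D act on this route, and Calb1 also marks ureteric bud epithelium in the developing mouse kidney. Slc8a1, Atp2b1 and Atp2b4 are also expressed in muscle, vessels and other cells, so a whole kidney library does not assign their RNA to the tubule.

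Library totals were 14457760 to 20741076 estimated counts. Kctd1, the targeted gene, measured 22.4, 25.4, 25.8 and 23.5 CPM (counts scaled to library size with TMM factors) in knockout 1 to 4, against 32.1, 28.9, 32.6 and 32.6 CPM in wildtype 1 to 4. The groups did not overlap. The log2 fold change of knockout over wildtype, here and for every gene from edgeR's quasi-likelihood fit with p-values adjusted by Benjamini-Hochberg over all genes, was -0.38 ± 0.09 (SE; edgeR, adjusted p = 0.279; DESeq2 adjusted p = 0.0178). The labels do not say which exons were floxed, and the count covers the whole gene. Defining markers of the main nephron segments were all abundant, with Slc34a1 of the proximal tubule at 1773 ± 21.5 CPM in knockout kidneys, against 1778 ± 37.1 CPM in wildtype (SD, n = 4 each). Lrp2 of the same segment measured 1143 ± 105 CPM in knockout kidneys, against 1094 ± 42.8 CPM in wildtype, Umod of the thick ascending limb 1206 ± 96.3 CPM in knockout kidneys, against 831 ± 69.1 CPM in wildtype, Slc12a1 of that limb 977 ± 89.6 CPM in knockout kidneys, against 1167 ± 59.9 CPM in wildtype, Nphs1 of podocytes 56.4 ± 9.21 CPM in knockout kidneys, against 81.6 ± 6.36 CPM in wildtype and Atp6v1b1 of intercalated cells 219 ± 22.4 CPM in knockout kidneys, against 207 ± 24.9 CPM in wildtype. Umod was higher in every knockout library than in any wildtype one. Its log2 fold change was 0.54 (adjusted p = 0.0599 with edgeR, 2.8e-06 with DESeq2). Nphs1 was lower throughout, at -0.53 (adjusted p = 0.261 with edgeR, 0.00691 with DESeq2). The others given here overlapped, beside 4.03% of all genes that separated the groups. Of the 8 listed, with Slc12a3 and Aqp2, edgeR called 1 lower, beside 0.0809% of all genes. DESeq2 called 1 higher and 2 lower, beside 0.86%. Some libraries stood apart. Xist RNA was abundant in knockout 2 and wildtype 3 alone, and knockout 2 held 5.39% of its counts on the ribosomal row Rn18s-rs5, the highest share of the 8 libraries. Aqp2, the water channel of principal cells, measured 478 CPM in knockout 1, against 149 to 202 CPM in the other 3 knockout libraries and 175 to 202 CPM in wildtype.

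None of the 7 calcium genes passed the threshold of 0.05 in either direction, while Slc12a3 of the distal convoluted tubule and Pvalb of its early part fell in the same libraries. Positive log2 fold changes were found for 5 members and negative ones for 2, with a median of 0.09, against a median of 0.00 over the 18548 genes tested. Values in log2(TPM + 1), which carry no TMM scaling, had an all-gene median of -0.11. Counts scaled to library totals, also without TMM, had one of -0.02. Relative to the median of log2(TPM + 1) the same members were positive, except Atp2b4 at -0.03. By edgeR's quasi-likelihood test 0 of 7 passed after adjustment, beside 0.0809% of all genes tested (0.0323% higher and 0.0485% lower), and by DESeq2 0 of 7 passed, beside 0.86%. At an unadjusted edgeR p under 0.05 there was 1 member, S100g, which was lower, beside 6.18% of all genes in either direction and 3.08% lower. The knockout and wildtype libraries overlapped for each of the 7, beside 4.03% of all genes that separated the groups. In bulk kidney RNA, fewer cells of a type and less RNA per cell cannot be told apart.

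**Figure D1:**
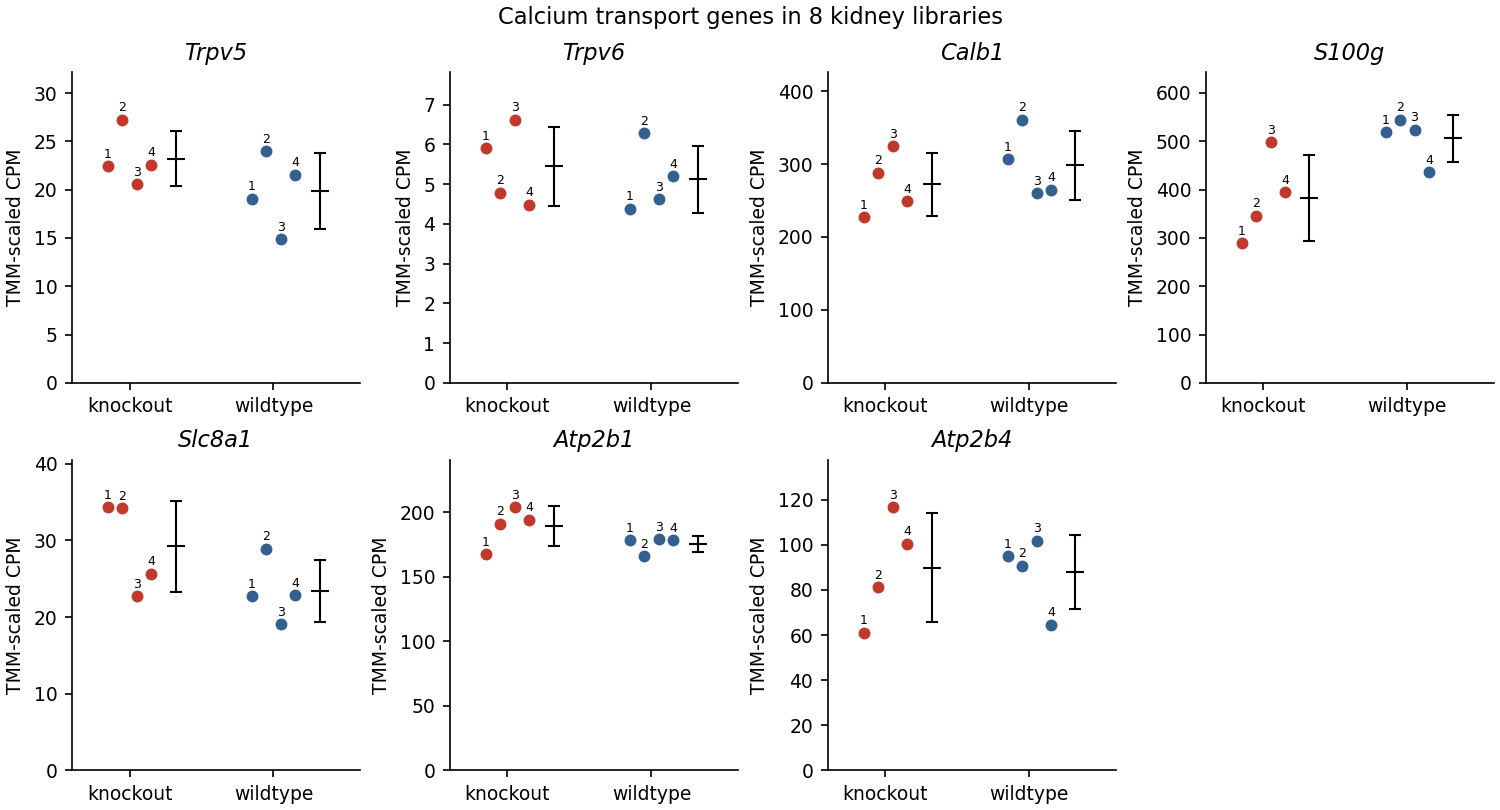
TMM-scaled CPM of the 7 calcium genes in each library, numbered 1 to 4 within knockout (red) and wildtype (blue), with the mean and SD (n = 4 each) in black; each axis starts at 0. The groups overlap in every panel, and S100g shows the widest gap between means, 382 CPM in knockout and 506 CPM in wildtype.

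On the TPM scale, which corrects for transcript length, the mean over the 8 libraries was 933 for S100g, 225 for Atp2b4, 38.9 for Calb1, 12.8 for Atp2b1, 4.77 for Slc8a1, 3.45 for Trpv5 and 0.954 for Trpv6. This order held in each of the 8 libraries. Neighbours in the order had ranges that did not overlap, except Slc8a1 (3.62 to 6.34 TPM) and Trpv5 (2.49 to 3.87 TPM). The place of Atp2b4 rests on very short transcripts, as given with that gene.

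The apical entry channels were the weakest members. Trpv5, the main calcium channel of the distal nephron, occupies bases 41652173 to 41680769 of chromosome 6 (GRCm38, minus strand), next to its paralog Trpv6, from 41620624 to 41636405 on the same strand. Trpv5 measured 22.4, 27.2, 20.6 and 22.6 CPM in knockout 1 to 4, against 19.1, 24.0, 14.9 and 21.5 CPM in wildtype 1 to 4. Knockout 2 was the highest library and wildtype 3 the lowest, and the other 6 were intermixed. The means were 23.2 ± 2.845 and 19.9 ± 3.885 CPM in knockout and wildtype (SD, n = 4 each), a log2 fold change of 0.23 with a 95% interval of -0.11 to 0.56 (edgeR, adjusted p = 0.908). Both extreme libraries are the Xist-rich ones, and the log2 fold change was 0.14 without knockout 2, 0.11 without wildtype 3 and 0.02 without both.

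Trpv6, the second channel, known best from the intestine and also present in kidney, measured 5.91, 4.78, 6.62 and 4.48 CPM in knockout 1 to 4, against 4.38, 6.28, 4.62 and 5.19 CPM in wildtype 1 to 4. These values rest on 72 to 108 counts per library. High and low libraries occurred in both groups, and the log2 fold change was 0.09 (95% interval -0.33 to 0.51; edgeR, adjusted p = 0.972), with values of -0.0178 to 0.20 when each library was left out. The interval spans 0.794-fold to 1.42-fold, and changes within it were not resolved at this depth and number of libraries. It is not adjusted over all genes, so it is not a limit of detection. Trpv5 made up 79.0 ± 4.56% of the summed TPM of both channels in knockout and 77.5 ± 2.29% in wildtype kidneys. The labels do not say how reads shared by the paralogs were divided, so their separate values are uncertain to that extent.

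Among the buffers, S100g, a small EF-hand protein and a classical vitamin D target in intestine and kidney, had the lowest p of the 7 members. It occupies bases 162961992 to 162964599 of chromosome X (GRCm38, minus strand). Its level was 289, 346, 499 and 394 CPM in knockout 1 to 4, against 518, 545, 524 and 436 CPM in wildtype 1 to 4. Knockout 1, 2 and 4 lay below every wildtype library, and knockout 3 lay within the wildtype range. The means were 382 ± 88.8 CPM across knockout and 506 ± 48.0 CPM across wildtype libraries (SD, n = 4 each), a log2 fold change of -0.41 with a 95% interval of -0.74 to -0.07. In edgeR the unadjusted p was 0.0241 and the adjusted p 0.706, so the difference did not pass over all genes. DESeq2 gave an adjusted p of 0.340.

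Several library features are set beside the S100g values. They did not all follow S100g from library to library, and their part in the difference was not tested beyond the values given here. Genes with short transcripts, under 300 bases by the counts and TPM, were low in knockout 2, by a median log2 deviation of -0.25 over 696 genes, and high in knockout 3, at 0.15. The same median was -0.06 in knockout 1 and 0.03 in knockout 4, and -0.06 to 0.10 in wildtype. S100g has a single annotated transcript of 480 bases. With the trend of level on transcript length removed within each library, its log2 fold change was -0.36 (edgeR, adjusted p = 0.528). Knockout 1, the lowest S100g library, was also the library with high Aqp2, and it had the lowest level of Klk1, the connecting tubule kallikrein, at 165 CPM, against 349 to 455 CPM in the other knockout libraries and 458 to 596 CPM in wildtype. Without knockout 1 the log2 fold change of S100g was -0.29. S100g lies within Ctps2 on the opposite strand, and 0 of its 3 exons overlap a Ctps2 exon. Ctps2 measured 42.9 ± 8.55 CPM in knockout kidneys, against 46.7 ± 1.92 CPM in wildtype. Its lowest value, 31.0 CPM, was in knockout 3, the knockout library with the most S100g.

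**Figure D2:**
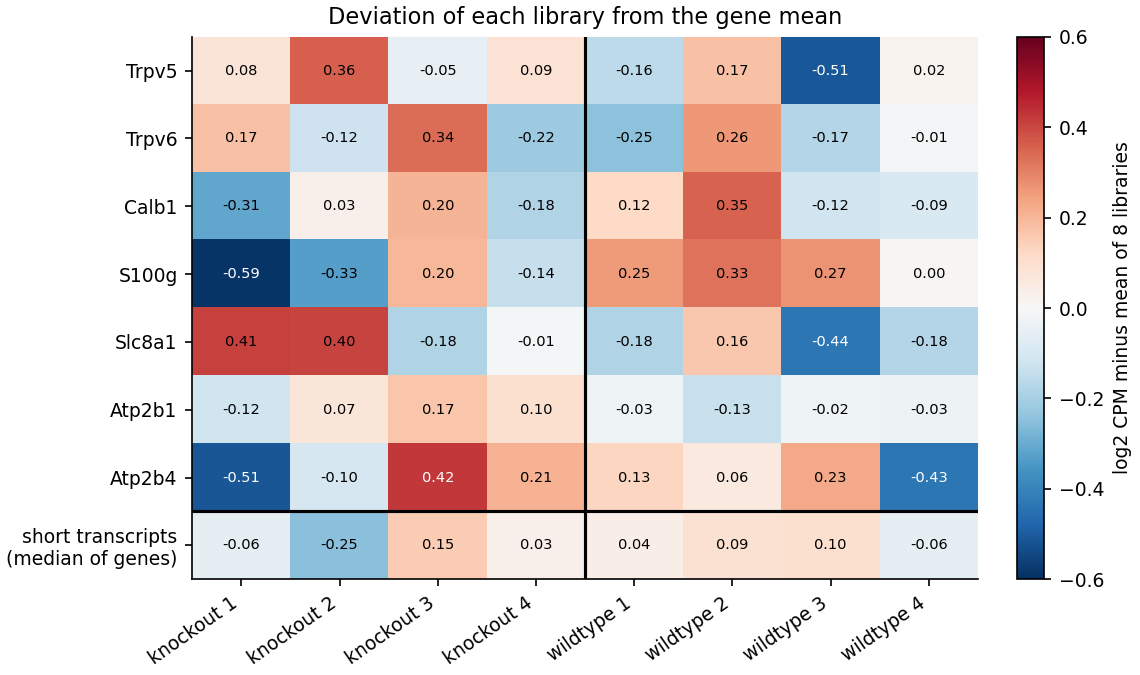
Log2 CPM of each calcium gene in each library minus the gene's mean over the 8 libraries (red above, blue below), with the median of 696 genes of short transcripts in the bottom row. S100g and Atp2b4 are both low in knockout 1, at -0.59 and -0.51, where Slc8a1 is at 0.41.

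Calb1, the calbindin-D28k of the distal convoluted and connecting tubule, occupies bases 15881264 to 15908064 of chromosome 4 (GRCm38, plus strand). Its level was 227, 288, 325 and 249 CPM in knockout 1 to 4, against 307, 361, 260 and 265 CPM in wildtype 1 to 4. The groups were interleaved, with knockout 1 lowest and wildtype 2 highest. The means were 272 ± 43.0 CPM across knockout and 298 ± 46.8 CPM across wildtype libraries (SD, n = 4 each), a log2 fold change of -0.13 with a 95% interval of -0.43 to 0.17 (edgeR, adjusted p = 0.939). It was -0.0544 without knockout 1, -0.23 without knockout 3 and -0.0258 without wildtype 2. S100g made up 95.5 ± 0.593% of the summed TPM of both buffers in knockout and 96.3 ± 0.422% in wildtype kidneys. The log2 TPM ratio of S100g over Calb1 was 4.40 ± 0.20 in knockout and 4.70 ± 0.18 in wildtype, and the groups overlapped (exact two-sided permutation p = 0.0857, adjusted p = 0.171 over 8 ratios).

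Active vitamin D acts on this calcium route, not on S100g and Trpv6 alone, and its receptor binds DNA as a partner of RXR at paired half-sites. The 250 bases before the RefSeq starts of S100g, the member with the lowest p, and of Trpv6 are shown. Among the member windows only these held the half-site AGGTCA. Capitals mark the half-site on either strand, where TGACCT is its reverse complement. The windows are chrX:162964600-162964849 and chr6:41636406-41636655, both minus strand of GRCm38.p6, written 5′ to 3′ along the gene and taken from RefSeq.
S100g: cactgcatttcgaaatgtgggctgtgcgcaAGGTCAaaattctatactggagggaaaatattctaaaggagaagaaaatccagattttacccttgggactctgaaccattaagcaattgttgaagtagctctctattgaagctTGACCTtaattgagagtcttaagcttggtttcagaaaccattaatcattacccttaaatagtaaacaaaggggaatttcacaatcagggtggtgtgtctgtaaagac
Trpv6: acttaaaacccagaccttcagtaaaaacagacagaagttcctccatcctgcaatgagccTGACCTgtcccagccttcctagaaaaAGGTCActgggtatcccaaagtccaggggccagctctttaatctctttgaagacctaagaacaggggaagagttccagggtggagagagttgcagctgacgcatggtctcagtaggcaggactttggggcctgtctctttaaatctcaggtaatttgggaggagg
Each window held the half-site at 2 places, 1 on each strand, so neither held 2 exact copies on 1 strand. In S100g these began 220 and 107 bases before the start, and in Trpv6 191 and 165 bases before it. AGGTCA on either strand occurred in 14% of 32817 promoter windows of the same length, so its presence is common. Of the 7 calcium genes 6 matched the promoter table, with 7 windows, and Calb1 had no entry. The consensus GCCNNNGGC of the AP-2 transcription factors, which the Kctd1 protein is known to repress, read on both strands, was in 0 of these 7 windows and in 13.7% of all. The TATA box letters TATAAA, read on both strands, were in 1 of the 7, that of Trpv5, from 43 bases before its start, and in 12.4% of all. The 3 motifs do not overlap in these windows, and a match describes letters only.

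Basolateral extrusion genes had log2 fold changes of 0.03 to 0.32, and in log2(TPM + 1) relative to the all-gene median those of Slc8a1 and Atp2b1 were 0.25 and 0.07 and that of Atp2b4 was -0.03. Slc8a1, whose exchanger is the main calcium exit of these tubule cells and also the exchanger of heart muscle, occupies bases 81373105 to 81738377 of chromosome 17 (GRCm38, minus strand). Its level was 34.4, 34.2, 22.8 and 25.7 CPM in knockout 1 to 4, against 22.8, 28.9, 19.1 and 22.8 CPM in wildtype 1 to 4. Knockout 1 and 2 were above every wildtype library, and knockout 3 and 4 were within the wildtype range. The means were 29.3 ± 5.93 CPM across knockout and 23.4 ± 4.09 CPM across wildtype libraries (SD, n = 4 each), a log2 fold change of 0.32 with a 95% interval of -0.04 to 0.69 (edgeR, adjusted p = 0.837). Without the Xist-rich libraries knockout 2 and wildtype 3 it was 0.15. Of the 7 cardiac and skeletal muscle markers, 3 tested and 4 too weak to test, Myh6, Ckm and Myh4 stayed under 1 CPM in every library. The 7 markers summed to 3.65 to 11.1 CPM in knockout and 2.26 to 4.505 CPM in wildtype, and 2 of the 3 tested were higher with an unadjusted p under 0.05, beside 3.11% of all genes. Tnnt2 measured 3.25 ± 2.87 CPM in knockout kidneys, against 0.878 ± 0.465 CPM in wildtype, Acta1 1.01 ± 0.308 CPM in knockout kidneys, against 0.531 ± 0.190 CPM in wildtype and Tnnt3 0.985 ± 0.248 CPM in knockout kidneys, against 0.786 ± 0.373 CPM in wildtype. By library, Tnnt2 was 1.01, 3.06, 1.59 and 7.37 CPM in knockout 1 to 4. It was thus highest in knockout 4, where Slc8a1 was 25.7 CPM, and lowest in knockout 1, where Slc8a1 was 34.4 CPM. The part of muscle RNA in the Slc8a1 values was not tested. The 8 vascular smooth muscle and mural markers summed to 1054 to 1253 CPM in knockout and 1122 to 1277 CPM in wildtype.

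Atp2b1, the widely expressed pump PMCA1, had the narrowest interval of the 7. It occupies bases 98914406 to 99026143 of chromosome 10 (GRCm38, plus strand). Its level was 168, 191, 204 and 194 CPM in knockout 1 to 4, against 178, 166, 179 and 178 CPM in wildtype 1 to 4. Knockout 2 to 4 were above every wildtype library, and knockout 1 was near the lowest, wildtype 2. The means were 189 ± 15.5 CPM across knockout and 175 ± 6.38 CPM across wildtype libraries (SD, n = 4 each), and the log2 fold change was 0.11 with a 95% interval of -0.05 to 0.27 (edgeR, adjusted p = 0.906). The interval corresponds to 0.965-fold to 1.21-fold, and without knockout 3 the log2 fold change was 0.07.

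Atp2b4, which encodes the pump PMCA4, occupies bases 133699457 to 133801041 of chromosome 1 (GRCm38, minus strand). Its level was 61.0, 81.3, 117 and 101 CPM in knockout 1 to 4, against 95.2, 90.7, 102 and 64.6 CPM in wildtype 1 to 4. Each group held 1 library near the low end, knockout 1 and wildtype 4, and the log2 fold change was 0.03 with a 95% interval of -0.44 to 0.50 (edgeR, adjusted p = 0.994). The sign was negative without knockout 3, knockout 4 or wildtype 4, at -0.12, -0.03 and -0.09.

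The Atp2b4 row stands mostly for short transcripts. The ratio of counts to TPM gives the mean length over which a gene's transcripts were counted, scaled on 914 genes with 1 annotated transcript of at least 1000 bases, for which 5% to 95% of the values lay at 0.838 to 1.06 times the annotated length. It was 210 bases for Atp2b4, under the 254 bases for S100g with its single 480-base transcript, and 7569 bases for Atp2b1. GENCODE M21, which may not be the release the authors used, lists 8 Atp2b4 transcripts, 5 of them of 3324 to 11725 bases. The shortest, Atp2b4-208, has 1 exon of 243 bases, from 133701639 to 133701881 on chromosome 1, and lies inside an exon of the longest transcript, Atp2b4-206. The TPM and the counts, which equal the TPM times 1 factor for the gene and 1 for the library, thus do not measure mainly the full-length pump RNA, and its level cannot be read from this row. For Trpv5, Trpv6 and Calb1 the implied lengths of 3283, 2935 and 3878 bases were near those of their longest transcripts, 3243, 2923 and 4222 bases.

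**Figure D3:**
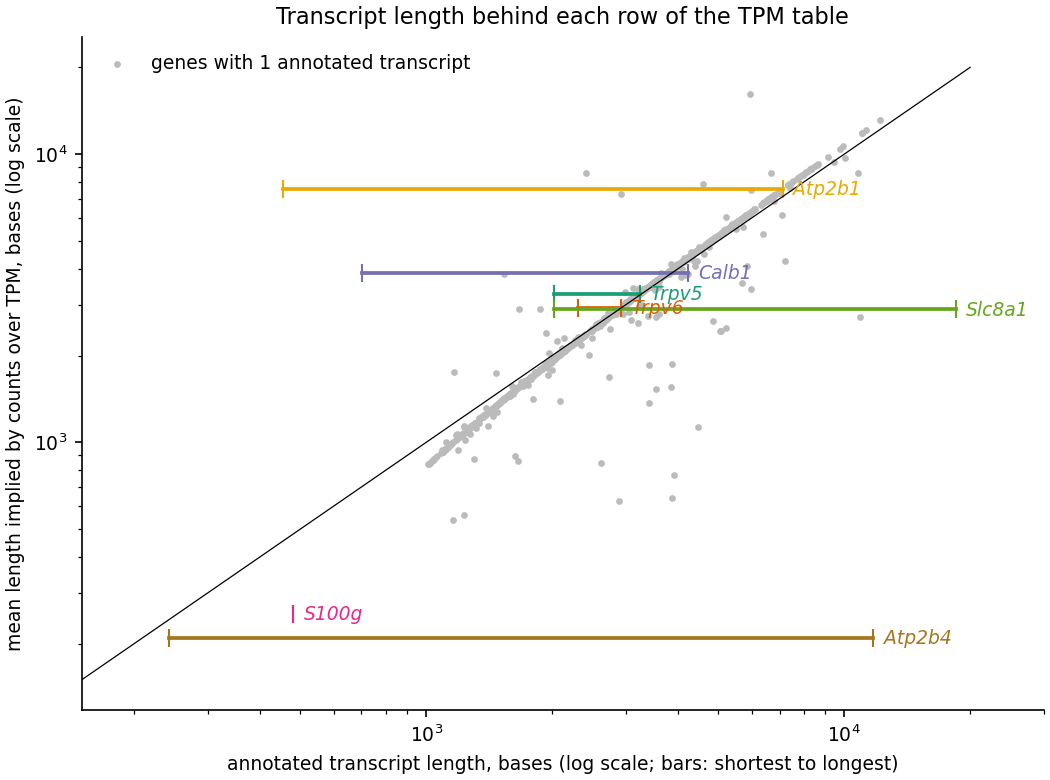
Mean transcript length implied by the ratio of counts to TPM against annotated length, both in bases on log axes, for 914 genes with 1 transcript (grey points, line of equality) and for the 7 calcium genes (bars from the shortest to the longest annotated transcript). Atp2b4 sits at 210 bases although its transcripts reach 11725 bases.

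The proportions between members were compared within each library, which needs no scaling between libraries. This does not remove the trend of level on transcript length, which differed between libraries. S100g over Calb1 joins implied lengths of 254 and 3878 bases, and Atp2b4 over Atp2b1 joins 210 and 7569 bases. The Atp2b4 ratio also does not measure the full-length pump RNA. The log2 TPM ratio of Trpv6 over Trpv5 was -1.94 ± 0.40 across knockout and -1.79 ± 0.19 across wildtype libraries (SD, n = 4 each; exact two-sided permutation p = 0.571, adjusted p = 0.653 over 8 ratios). Atp2b1 over Slc8a1 was 1.33 ± 0.40 in knockout and 1.53 ± 0.30 in wildtype (exact permutation p = 0.343, adjusted p = 0.457), and Atp2b4 over Atp2b1 was 4.06 ± 0.29 and 4.16 ± 0.30 in knockout and wildtype (exact permutation p = 0.714, adjusted p = 0.714). In each of these the groups overlapped.

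Set against Slc12a3, which encodes the thiazide-sensitive salt cotransporter of the distal convoluted tubule, the entry channels and Calb1 were relatively more abundant in every knockout library than in any wildtype library. Slc12a3 itself fell to 247 ± 30.9 CPM in knockout kidneys, against 464 ± 23.9 CPM in wildtype (log2 fold change -0.91 ± 0.09 SE; edgeR, adjusted p = 0.00634). The log2 TPM ratio of Trpv5 over Slc12a3 was -3.56, -3.20, -3.26 and -3.48 in knockout 1 to 4, against -4.48, -4.30, -4.89 and -4.45 in wildtype 1 to 4, a difference of 1.16 or 2.23-fold. That of Trpv6 was -5.31 ± 0.41 in knockout and -6.32 ± 0.17 in wildtype, and that of Calb1 was -0.07 ± 0.40 in knockout and -0.86 ± 0.22 in wildtype. Each of these 3 gave 0.0286 in the exact two-sided permutation test, the smallest p that 70 relabelings allow. After adjustment over 8 ratios each was 0.0762, so none passed. Even this smallest p could pass only if most of the 8 ratios reached it. S100g over Slc12a3 was 4.34 ± 0.51 in knockout and 3.85 ± 0.18 in wildtype, with overlapping groups (exact permutation p = 0.114, adjusted p = 0.183). Slc12a3 was chosen because it was known to fall in these libraries, so the differences restate that fall beside members that did not pass the test. For the same reason the permutation p-values of the ratios over Slc12a3 are not separate evidence. They also enter the adjustment over 8 ratios. The adjusted p of a ratio between members, such as S100g over Calb1, can thus be lower than over the ratios between members alone.

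**Figure D4:**
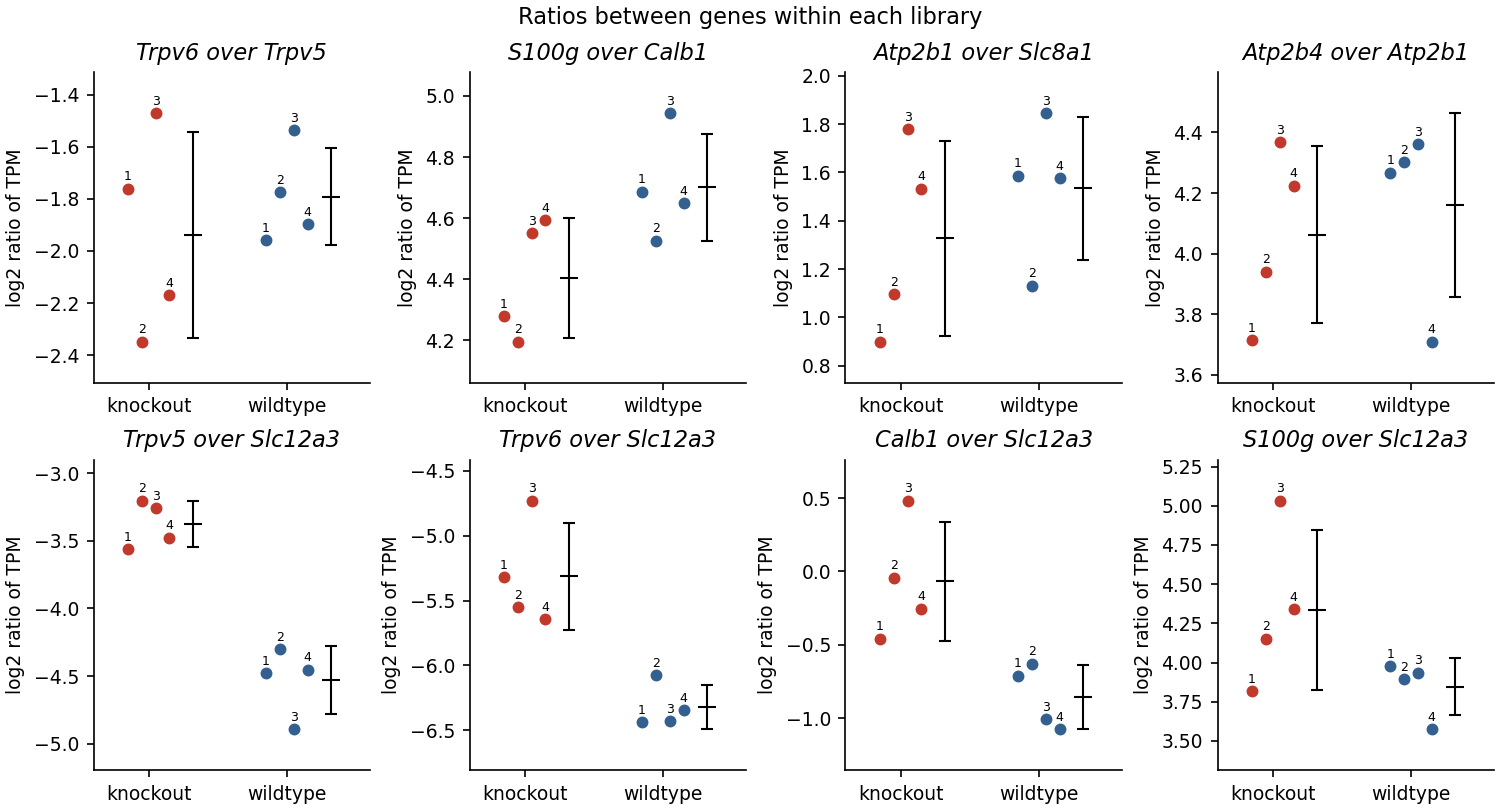
Log2 ratio of TPM between pairs of genes in each library, numbered 1 to 4 within knockout (red) and wildtype (blue), with mean and SD (n = 4 each) in black; the axes do not start at 0. The upper row pairs members with each other and all its groups overlap, and in the lower row Trpv5, Trpv6 and Calb1 over Slc12a3 are higher in all 4 knockout libraries.

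The other genes of the pathway are given by lists, with the counts over the 18548 tested genes (6 higher and 9 lower past the threshold, 576 higher and 571 lower with an edgeR p under 0.05 before adjustment) as the comparison. Of 16 genes that traffic or regulate the channels, 0 passed with edgeR or DESeq2, 2 were lower and 0 higher at unadjusted p under 0.05, and the median log2 fold change was -0.02. Anxa2, which encodes the annexin that with S100a10 carries the channels to the membrane, measured 230.4 ± 21.4 CPM in knockout kidneys, against 262 ± 12.4 CPM in wildtype. Slc9a3r2, a PDZ scaffold gene, measured 116 ± 6.18 CPM in knockout kidneys, against 129 ± 4.25 CPM in wildtype, and Tgm2, a transglutaminase gene, 138 ± 12.2 CPM in knockout kidneys, against 124 ± 5.42 CPM in wildtype.

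Of 14 genes of calcium hormones and sensing, 13 were tested and 0 passed with edgeR or DESeq2. Before adjustment 4 were higher and 0 lower with p under 0.05, beside 3.11% of all genes higher, and the median was -0.02. Cyp27b1, which encodes the enzyme that makes active vitamin D, measured 15.7, 20.5, 12.1 and 10.8 CPM in knockout 1 to 4, against 10.4, 5.88, 6.19 and 11.5 CPM in wildtype 1 to 4. Knockout 1 to 3 were above every wildtype library, and the log2 fold change was 0.79 ± 0.27 (SE; edgeR, adjusted p = 0.645). Gna11, a G protein subunit gene through which the calcium-sensing receptor signals, measured 119.9 ± 26.7 CPM in knockout kidneys, against 87.2 ± 7.10 CPM in wildtype, and the calcitonin receptor gene Calcr 2.20 ± 0.429 CPM in knockout kidneys, against 1.33 ± 0.0628 CPM in wildtype. The fourth was Casr, the calcium-sensing receptor gene, at 34.1 ± 7.90 CPM in knockout kidneys, against 26.3 ± 2.29 CPM in wildtype, named after its values were seen. The vitamin D receptor gene Vdr, likewise chosen afterwards, measured 108 ± 7.34 CPM in knockout kidneys, against 109 ± 6.70 CPM in wildtype.

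Of 12 other exchangers and pumps, 11 were tested, 0 passed with edgeR or DESeq2 and 0 had an unadjusted p under 0.05, with a median of 0.01. The smallest p values were those of Atp2a1, a sarcoplasmic reticulum calcium pump gene, at 0.611 ± 0.428 CPM in knockout kidneys, against 1.29 ± 0.726 CPM in wildtype, Atp2b2, another plasma membrane pump gene, at 2.32 ± 0.595 CPM in knockout kidneys, against 1.78 ± 0.596 CPM in wildtype, and Slc24a3, a potassium-dependent exchanger gene, at 8.65 ± 1.27 CPM in knockout kidneys, against 7.70 ± 0.771 CPM in wildtype. Of 8 other EF-hand buffers, 6 were tested and 1 fell, with a median of -0.08. This was Pvalb, parvalbumin of the early distal convoluted tubule, at 9.79 ± 1.68 CPM in knockout kidneys, against 39.3 ± 4.31 CPM in wildtype (log2 fold change -2.01 ± 0.14 SE; edgeR, adjusted p = 3.6e-04). S100a11 measured 122 ± 7.35 CPM in knockout kidneys, against 111 ± 4.79 CPM in wildtype, and S100a16 113 ± 11.4 CPM in knockout kidneys, against 121 ± 16.4 CPM in wildtype. Of 7 claudins of the paracellular calcium route 0 passed with edgeR or DESeq2 and 1 was higher at an unadjusted p under 0.05, with a median of 0.08. It was Cldn14, which blocks the calcium pore of the thick ascending limb, at 0.864 ± 0.192 CPM in knockout kidneys, against 0.312 ± 0.160 CPM in wildtype. The Cldn14 values rest on 2 to 22 counts per library, and DESeq2 gave this gene no adjusted p. Cldn10 measured 126 ± 9.18 CPM in knockout kidneys, against 139 ± 7.11 CPM in wildtype, and Cldn19, a partner in the thick limb pore, 106 ± 22.2 CPM in knockout kidneys, against 126 ± 16.9 CPM in wildtype.

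Lists of segments and cell types give the setting of these values. Of 14 distal convoluted tubule genes 3 fell, Pvalb, Slc12a3 and the transcription factor gene Sall3, 12 had negative log2 fold changes, and the median was -0.43. At an unadjusted edgeR p under 0.05 there were 10 lower, beside 3.08% of all genes. DESeq2 called 7 of them lower, beside 99 lower among the 18021 genes to which it gave an adjusted p. Without the Xist-rich libraries 1 of the 14 passed with edgeR, where 3 of all genes passed. Of 12 connecting tubule and principal cell genes neither edgeR nor DESeq2 called any (0), and before adjustment 1 was lower with p under 0.05, with a median of -0.02. That gene was Scnn1a, a subunit of the epithelial sodium channel, at 70.2 ± 4.44 CPM in knockout kidneys, against 82.2 ± 8.55 CPM in wildtype. The 12 genes summed to 1354 to 1637 CPM in knockout and 1544 to 1719 CPM in wildtype. Klk1 averaged 346 ± 128 CPM in knockout kidneys, against 500.5 ± 65.0 CPM in wildtype, and Scnn1b, another subunit of that channel, 117 ± 3.43 CPM in knockout kidneys, against 108 ± 5.90 CPM in wildtype. Of 10 ureteric and collecting duct genes, 8 mural genes and 7 endothelial genes 0 passed with edgeR or DESeq2, with medians of 0.07, -0.08 and -0.15 and with 1, 2 and 1 at an unadjusted p under 0.05. Negative log2 fold changes were found for 4 of the ureteric, 6 of the mural and all 7 of the endothelial genes, beside 9218 of the 18548 genes tested. Of the ureteric genes with the smallest p, Wnt9b, a duct signal for nephron induction, measured 47.0 ± 9.45 CPM in knockout kidneys, against 36.8 ± 5.17 CPM in wildtype, Krt18 96.5 ± 14.5 CPM in knockout kidneys, against 87.8 ± 5.96 CPM in wildtype and Krt8 202 ± 17.7 CPM in knockout kidneys, against 190.2 ± 6.66 CPM in wildtype. Of the mural genes, Myocd, a smooth muscle coactivator gene, measured 2.82 ± 0.551 CPM in knockout kidneys, against 1.27 ± 0.451 CPM in wildtype, Pdgfrb 162 ± 10.7 CPM in knockout kidneys, against 188 ± 2.86 CPM in wildtype and Tagln 201 ± 25.7 CPM in knockout kidneys, against 216 ± 29.7 CPM in wildtype. Of the endothelial genes, Plvap measured 240.4 ± 10.9 CPM in knockout kidneys, against 266 ± 12.3 CPM in wildtype, Emcn 139 ± 14.0 CPM in knockout kidneys, against 158 ± 10.7 CPM in wildtype and Ehd3 46.7 ± 7.87 CPM in knockout kidneys, against 56.2 ± 9.43 CPM in wildtype.

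**Figure D5:**
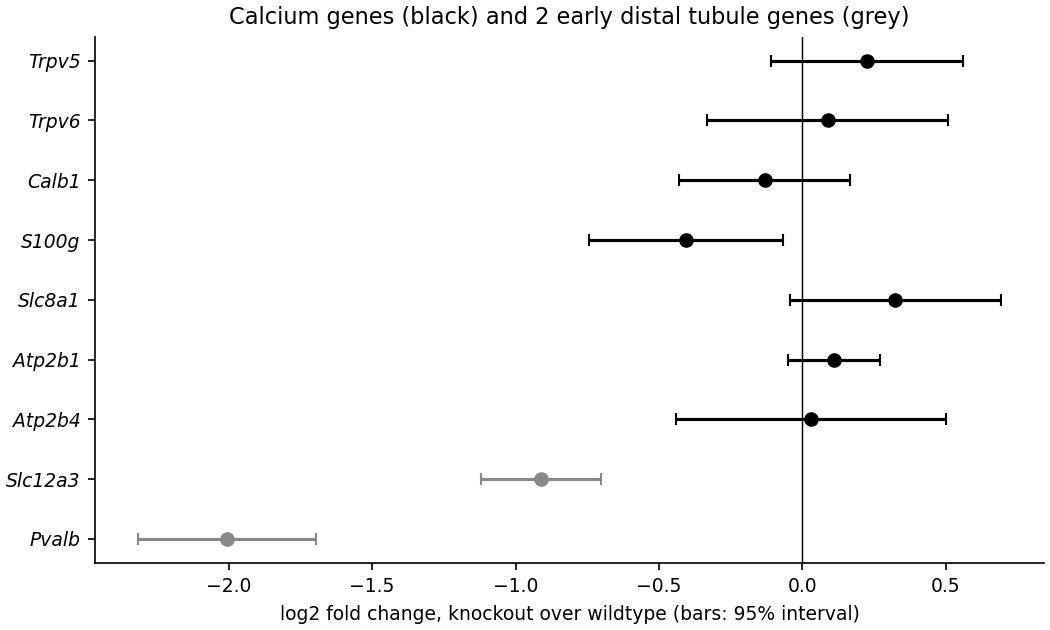
Log2 fold change of knockout over wildtype with its 95% interval from edgeR's quasi-likelihood fit (4 libraries each) for the 7 calcium genes in black and for Slc12a3 and Pvalb in grey. The calcium genes lie between -0.41 and 0.32, and Slc12a3 and Pvalb at -0.91 and -2.01.

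The members did not share 1 pattern over the 8 libraries. Likeness was measured as the root mean square difference between centred log2 CPM values, ranked among 12054 genes with an assigned name and at least 5 CPM. For Trpv5 the nearest member was Slc8a1, at rank 96 with a difference of 0.15, and its paralog Trpv6 was at rank 5387 with 0.28. Trpv5 and Slc8a1 were both high in knockout 2, at 0.36 and 0.40, and low in wildtype 3, at -0.51 and -0.44. These are the Xist-rich libraries, and likeness without them was not measured. For S100g the nearest member was Calb1, at rank 431 with 0.22, and Slc8a1 was at rank 11423 with 0.55. For Calb1 the nearest member was S100g, at rank 3402 with 0.22, and for Trpv6 it was Calb1, at rank 3747 with 0.23. The nearest other genes were Tvp23a, Iqsec1 and Pphln1 for Trpv5, C1qtnf6, Yars2 and Nme6 for Trpv6, Col8a1, Homez and Alg12 for Calb1, and Hopx, Mgp and Fam64a for S100g, with differences of 0.06 to 0.13. A search of 12054 genes over 8 libraries finds close matches in any case, and a link of these genes to the members was not tested.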

How the data were processed

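Per the labels' protocols, total RNA of whole kidneys was made into strand-specific libraries. The submitters' processing notes name Salmon, DESeq2 1.14.1 and mm10, and neither an annotation release nor the strand setting of the counting. Estimated counts, as whole numbers, and TPM were deposited by the authors in 1 table each. The count table has no gene names, so its 47729 rows took names, by position, from the unique identifiers of the TPM table. The match was checked over 13251 genes by the SD of log2(count/TPM) across libraries after library scaling, whose median was 0.000745, against 0.309 with rows shifted by 1.

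Genes were filtered with filterByExpr (18548 kept), scaled with TMM and tested with edgeR 4.0.16 (R 4.3.3; quasi-likelihood, robust, genotype only, two-sided), with adjusted p (Benjamini-Hochberg) called under 0.05. The method was tested on simulated data. All counts and medians of lists are descriptions with no set test. Ratios used exact permutation tests over 70 relabelings. Alternatives were other scalings and filters, DESeq2 1.42.0, limma 3.58.1 on voom and log2(TPM + 1) or log2(TPM + 0.1) values, a replicate block and left-out libraries. Coordinates are from GENCODE M21 (GRCm38, the assembly of mm10).

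The members and lists were chosen with earlier results of these data known. The genes named are the target, the 7 members, Slc12a3, from each list those past the threshold and otherwise up to 3 with the smallest p (all of the kidney segment list), and the 3 nearest genes to Trpv5, Trpv6, Calb1 and S100g. No 2 replicates agreed within sampling noise (lowest chi-square over degrees of freedom 11.2).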

Additional observations from a re-analysis of the deposited data

Results flagged for a closer look

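In 8 of 110 sets of 4 libraries 1 library was far from its group, and about 5.5 such sets (1 in 20) arise by chance. Atp2b1 was 166 CPM in wildtype 2, against 178 to 179 CPM in the other wildtype libraries. The log2 TPM ratio of Atp2b4 over Atp2b1 was 3.71 in wildtype 4, against 4.27 to 4.36 in the others. Kctd1 was 28.9 CPM in wildtype 2, against 32.1 to 32.6 CPM. Aqp2, given beside S100g, was 478 CPM in knockout 1, against 149 to 202 CPM in the other knockout libraries. Tagln, a smooth muscle gene, was 239 CPM in knockout 3, against 185 to 190 CPM in the other knockout libraries, and 172 CPM in wildtype 4, against 229 to 234 CPM in the other wildtype libraries. Wildtype 4 also stood apart for the endothelial gene Ehd3, at 70.2 CPM against 50.2 to 53.3 CPM, and for the muscle gene Tnnt3, at 1.35 CPM against 0.590 to 0.609 CPM.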

How the results depend on the processing

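The 7 calcium genes had 0 calls under every alternative run, and 137 of their 147 alternative values kept the main sign. On the TPM scale, where the median of all genes was -0.11 with a pseudocount of 1 and -0.14 with 0.1, the log2 fold changes were -0.0194 and -0.0457 for Trpv6, -0.0342 and -0.0374 for Atp2b1, and -0.13 and -0.14 for Atp2b4, all negative where the main values were positive. TPM is scaled to the same total in each library but carries no TMM scaling. Counts scaled to library totals, also without TMM, had an all-gene median of -0.02. Relative to the TPM medians the values were 0.09 and 0.10 for Trpv6, 0.07 and 0.10 for Atp2b1, and -0.03 and 0.01 for Atp2b4. Relative to the TPM medians Trpv6 and Atp2b1 thus kept the positive sign of the main fit. In knockout 2 Slc34a1 was 229 TPM, against 293 to 336 TPM in the other libraries. Its CPM there was 1765, against 1724 to 1810 CPM. Trpv6 was 0.657 TPM in knockout 2, against 0.859 to 1.19 TPM in the other knockout libraries, and Atp2b1 10.2 TPM, against 11.8 to 14.4 TPM. The part of knockout 2 in the TPM medians and signs was not tested. Leaving out each library in turn gave -0.0178 to 0.20 for Trpv6 and -0.12 to 0.18 for Atp2b4, with sign changes without knockout 3 for both and without knockout 4 or wildtype 4 for Atp2b4, and -0.25 to 0.0182 for the log2 ratio of Atp2b4 over Atp2b1, positive without knockout 1. For S100g the left-out fits gave -0.56 to -0.29, with adjusted p of 0.202 to 0.984. The 15 genes past the threshold became 155 with DESeq2, 27 with no filter, 27 with the correction for transcript length (chosen after seeing the data), 6 and 6 on the TPM scale, 3 without the Xist-rich libraries, and 10 to 52 with each library left out, where 29 came without knockout 3 and 52 without wildtype 4. Calls in the distal convoluted tubule list were 7 with DESeq2, and 1 on either TPM scale and without the Xist-rich libraries. Same-numbered libraries did not deviate together (correlations of -0.081 to 0.0363), so the numbers were not taken as pairs; with the replicate block 10 genes passed and S100g had a log2 fold change of -0.43 (adjusted p = 0.761). Of 252 list medians 23 moved by more than the spread between libraries. With 4 libraries a group, changes inside the intervals given were not resolved. The intervals are not adjusted over all genes, so a change whose interval leaves out 0 can also go uncalled, as for S100g.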
